A study of Mus musculus with 16 samples.

Results

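The clustered protocadherins are the cell surface genes of the alpha, beta and gamma clusters on chromosome 18. Members were chosen by gene symbol alone, as the table spells it, and 58 of the 23284 genes listed were clustered protocadherins. They comprised 14 alpha, 22 beta and 22 gamma members. All 58 had a value above 0 in all 16 libraries, and 55 of them (12 alpha, 21 beta and 22 gamma) passed the filter on low values and entered the test. Pcdha1, Pcdha8 and Pcdhb1 averaged 0.448, 0.196 and 0.183 FPKM and were not tested.

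Protocadherins of these clusters are transmembrane proteins with extracellular cadherin repeats. Each neuron transcribes a small, largely random choice of them from alternative promoters, and cells that carry the same set recognize each other through homophilic binding, which is known for its part in dendrite self-avoidance and axon spacing. In the alpha and gamma clusters each variable exon encodes the extracellular and transmembrane part and is spliced to constant exons that encode a common cytoplasmic end. The beta members are single-exon genes without constant exons. The 5 C-type members (Pcdhac1, Pcdhac2, Pcdhgc3, Pcdhgc4 and Pcdhgc5) lie at the ends of the alpha and gamma clusters and are not chosen at random in the way of the others. Choice of promoter depends on CTCF and cohesin, which loop promoters to distant enhancers, and on DNA methylation.

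The libraries came from prefrontal cortex of mice aged 2 to 3 months, 4 each of 3 mutant genotypes and of controls. APC cKOs carried APC fl/fl, β-cat cOEs a ctnnb1 allele with a floxed exon 3 (ctnnb1 fl(ex3)/+) whose product is stabilized, and APC/β-cat cKOs carried both APC fl/fl and ctnnb1 fl/fl. The labels spell β-cat as Bcat. All 3 mutant lines carried the same CamKIIα-Cre-93 transgene, which acts in forebrain excitatory neurons, whereas the measured RNA came from all cells of the tissue. Controls were Cre-negative littermates pooled from all lines, and the floxed alleles that each control mouse carried, and the strain of the DNA around them, are not given in the sources used here. By the study's design β-catenin is raised in β-cat cOEs and APC cKOs and reduced in APC/β-cat cKOs, the double mutant. The lines thus vary APC and the level of β-catenin separately, but both APC-deleted lines also carry APC fl/fl.

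Values are FPKM, the number of fragments scaled to transcript length and to the mapped fragments of the library, and differences are on the log2(FPKM + 0.1) scale. The number of genes at 0 was 5726 to 6649 per library, and the depth of the libraries is unknown. Excitatory neuron markers were high in all groups, with Slc17a7, the vesicular glutamate transporter of cortical neurons, at 464 FPKM in controls, and the serotonergic markers summed to at most 0.538 FPKM. Apc itself, the targeted gene, ranged from 38.8 to 50.1 FPKM in the 8 APC-intact libraries and from 6.80 to 17.1 FPKM in the 8 APC-deleted ones. In whole tissue, fewer cells of a type and less RNA per cell cannot be told apart.

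Apc lies on the same chromosome as the members (mm10, RefSeq positions, 34220297 to 34322190). The alpha cluster runs from 36930285 to 37188897, the beta cluster from 37264998 to 37521419 and the gamma cluster from 37661775 to 37841873. They start 2.61, 2.94 and 3.34 Mb beyond the end of Apc. The deposited table gives every member 1 common locus that spans the 3 clusters. Reads from constant exons can belong to several members. Of the windows of 100 bases (1 read length) in an alpha transcript, a median of 55.1% occurred in another member as well, and 44.1% in gamma. The beta members had a median of 0.207% and at most 7.73%, for Pcdhb21. The level of an alpha or gamma member therefore depends on how such reads were divided, and that of a beta member does so far less.

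Most members were expressed at low levels. Their means had a median of 2.57 FPKM, against 10.0 FPKM in all 13978 tested genes, and the clusters' medians were 1.84 FPKM (alpha), 1.84 FPKM (beta) and 3.71 FPKM (gamma). C-type members stood at the top: Pcdhgc5 averaged 57.8 FPKM, Pcdhgc3 23.6 FPKM and Pcdhac2 17.7 FPKM, while Pcdhgc4 and Pcdhac1 averaged 4.93 and 1.90 FPKM. Outside the C-type members the highest mean was 6.75 FPKM, for Pcdhga6. Pcdhb9 was the highest beta member (5.34 FPKM) and Pcdhb1 the lowest, and in gamma the lowest was Pcdhga1, at 2.18 FPKM. Members varied more between libraries of a genotype than all tested genes, with a median residual SD of 0.252 on the log2 scale against 0.146. No genes of the same level were compared, so the part of the low levels in this spread was not tested.

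The summed levels of the alpha and gamma clusters, with their C-type members included, overlapped between all genotypes. In controls, β-cat cOEs, APC cKOs and APC/β-cat cKOs, in this order, the 14 alpha members summed to 45.2 ± 1.58, 43.1 ± 2.96, 42.9 ± 2.43 and 41.8 ± 4.14 FPKM (SD, n = 4 each). Those of the 22 gamma members were 157 ± 4.85, 159 ± 7.62, 165 ± 6.34 and 157 ± 7.60 FPKM in the same order, and those of the 22 beta members 51.6 ± 7.11, 49.4 ± 3.51, 55.4 ± 3.84 and 44.0 ± 3.44 FPKM. The beta sums of the mutant lines ranged from 50.1 to 58.7 FPKM in APC cKOs and from 40.1 to 47.2 FPKM in APC/β-cat cKOs, which do not overlap, and controls (46.3 to 61.8 FPKM) overlapped both. Without the C-type members, the 19 gamma members summed to 75.23 to 82.08 FPKM in APC/β-cat cKOs and 61.71 to 74.35 FPKM in β-cat cOEs. These did not overlap, whereas all other pairs of genotypes did. The 12 alpha members without C-type summed to 22.15 to 23.99 FPKM in APC cKOs and 24.21 to 25.25 FPKM in controls. These were likewise the only genotypes apart. No test was made on a sum over members.

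**Figure D1:**
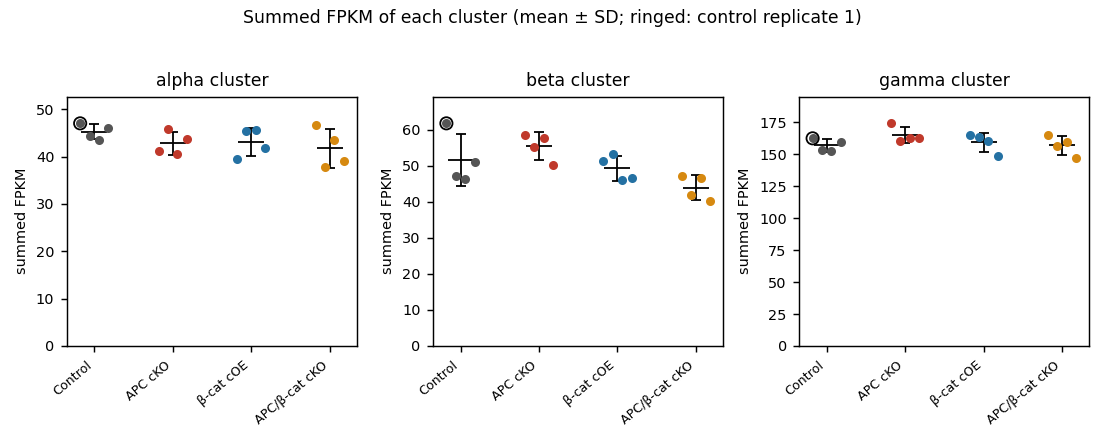
Summed FPKM of the 14 alpha, 22 beta and 22 gamma members in each of the 16 libraries, by genotype. Points are libraries, lines and bars the mean ± SD of 4, and the ring marks control replicate 1, whose beta sum of 61.8 FPKM was the highest of all libraries.

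Control replicate 1 stood apart at these genes. The first principal component of the 55 tested members held 57.7% of their variance over the 16 libraries. That of all tested genes held 13.9%, and no gene set of the size of the members was compared. In the component of the members, control replicate 1 had a score of 2.41. The other controls were at -3.21, -2.55 and -1.53. APC cKOs lay between 1.79 and 2.46 and APC/β-cat cKOs between 1.15 and 1.64, whereas β-cat cOEs lay between -3.33 and -0.81. Control replicate 1 thus sat among the lines with deleted Apc at the protocadherins, while its own Apc was at 43.2 FPKM, within the range of the other controls (40.8 to 50.1 FPKM). Over all genes its median correlation with the other libraries was 0.974, where the 16 libraries ran from 0.968 to 0.977. Leaving it out raised the genes called between the APC-deleted and APC-intact groups from 54 to 143, of which 12 were members. Its effect on the calls was thus not confined to the members. Control replicate 1 was also 1 of the 2 libraries with Xist above the Y-linked genes. The other was APC cKO replicate 1, whose score of 2.08 was within the range of its genotype. The part of sex, alleles and strain in the position of this library was not tested, and the results that rest on it are given with and without it. The library was singled out by the values of these same members. The p-values of members without it are therefore a description and no separate support.

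**Figure D2:**
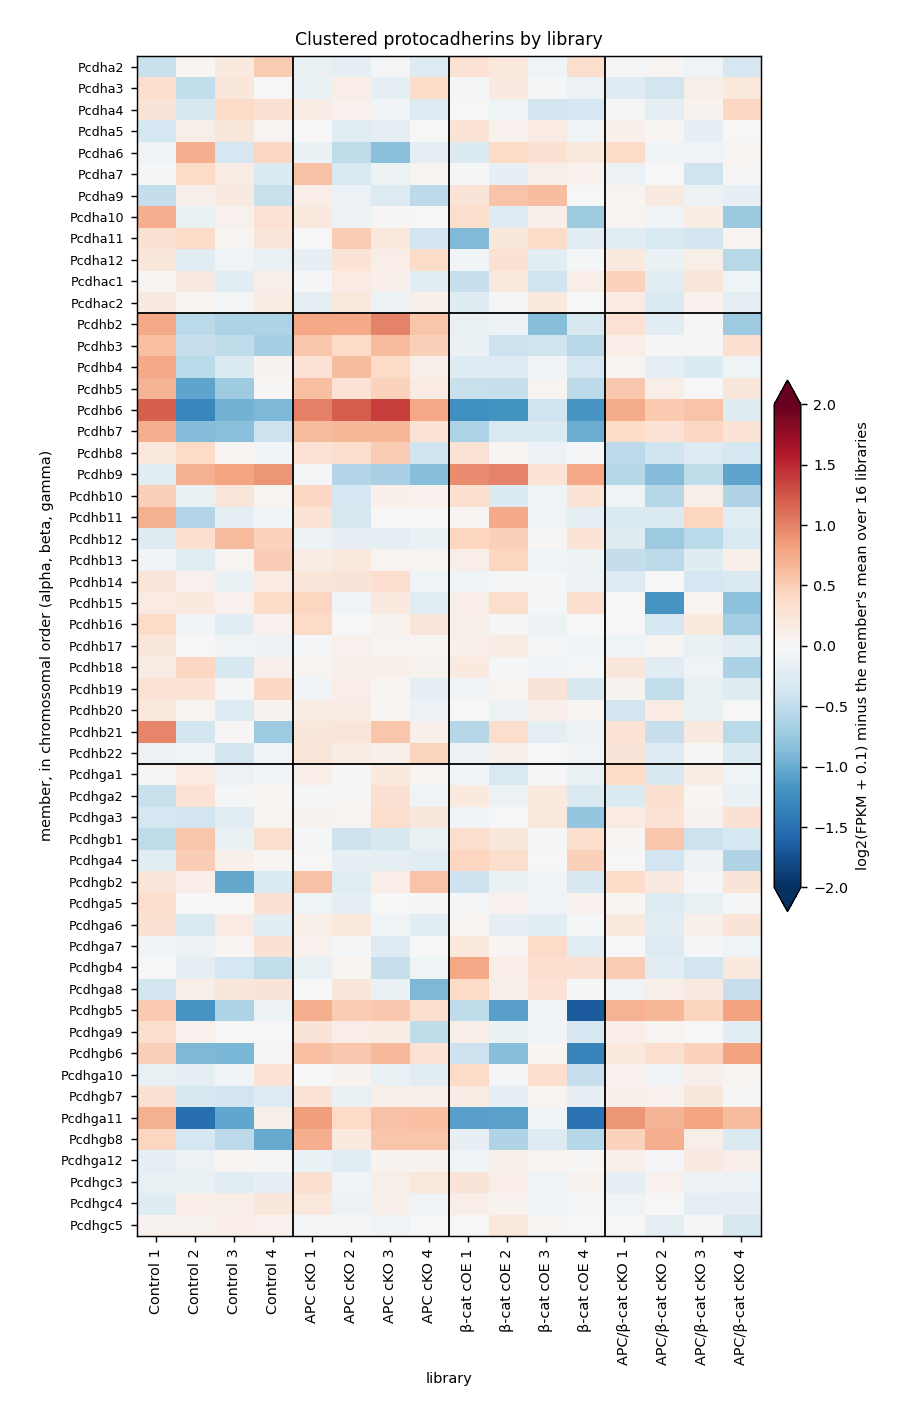
Each of the 55 tested members (rows, in chromosomal order, with lines between the alpha, beta and gamma clusters) in each of the 16 libraries (columns), as log2(FPKM + 0.1) minus the member's mean, with red for higher and blue for lower values. Pcdhb3, Pcdhb5, Pcdhb7, Pcdhgb5, Pcdhgb6 and Pcdhga11 are above their mean in all 8 APC-deleted libraries and in control replicate 1, Pcdhb2, Pcdhb4 and Pcdhb6 are so in APC cKOs and in part of the double mutant libraries, and Pcdhb9 is below its mean in all 9.

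Both APC-deleted lines (APC cKOs and APC/β-cat cKOs, 8 libraries) were set against both APC-intact groups (β-cat cOEs and controls, 8 libraries). In this comparison, loss of APC and DNA linked to the floxed Apc allele on the same chromosome cannot be told apart. With all libraries, 5 of the 55 tested members were called at an adjusted p under 0.05, where 0.386% of all tested genes were. Pcdhb6, Pcdhgb5 and Pcdhga11 were higher in the APC-deleted lines, and Pcdhb9 and Pcdhb12 were lower. At an unadjusted p under 0.05 the count was 18 of 55 members (11 higher and 7 lower), against 13.3% of all tested genes. The median difference over the 55 members was -0.03, and that over all tested genes 0.00. Called members were thus found in both directions, in the beta and gamma clusters, and 0 of 12 alpha members were called.

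Of these 5, Pcdhb9 had the smallest p. Its values were 3.98, 7.80, 8.21 and 8.75 FPKM in controls 1 to 4 and 9.11, 9.42, 5.71 and 8.15 FPKM in β-cat cOEs. In APC cKOs they were 4.57, 3.09, 2.96 and 2.57 FPKM, and in APC/β-cat cKOs 3.13, 2.53, 3.27 and 2.21 FPKM. All 8 APC-deleted libraries were below all β-cat cOEs and below controls 2 to 4, and control replicate 1 fell within their range. The difference was -1.28 (standard error 0.17, limma adjusted p = 0.00241), and -1.41 without control replicate 1 (adjusted p = 7.55e-05). Pcdhb9 lies from 37400855 to 37403909 and shared 1.15% of its windows with other members.

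Pcdhb6 changed in the other direction. It was at 3.78 FPKM in control 1 and at 0.581, 0.775 and 0.807 FPKM in controls 2 to 4, and at 0.620, 0.636, 1.18 and 0.649 FPKM in β-cat cOEs. APC cKOs had 3.30, 3.80, 4.28 and 2.78 FPKM, and APC/β-cat cKOs had 2.71, 2.32, 2.40 and 1.32 FPKM. Apart from control replicate 1, the groups did not overlap. The difference was 1.49 (standard error 0.29, adjusted p = 0.0394) with all libraries and 1.77 (adjusted p = 8.93e-05) without that control. Pcdhb6 lies from 37333860 to 37337438, and 2.31% of its windows were shared.

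Pcdhb12 was lower in the APC-deleted lines. Controls had 2.69, 4.07, 5.01 and 4.43 FPKM and β-cat cOEs 4.33, 4.48, 3.27 and 3.89 FPKM. APC cKOs had 2.99, 2.84, 2.79 and 2.92 FPKM and APC/β-cat cKOs 2.69, 1.90, 2.17 and 2.58 FPKM. Control replicate 1 was again the 1 APC-intact library within the range of the APC-deleted lines. The difference was -0.60 (standard error 0.12, adjusted p = 0.0342) and, without it, -0.69 (adjusted p = 0.00116).

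In the gamma cluster, Pcdhga11, an A-type member, had 6.89, 1.39, 1.97 and 4.50 FPKM in controls and 1.90, 1.93, 3.98 and 1.44 FPKM in β-cat cOEs. It had 7.46, 5.52, 6.30 and 6.35 FPKM in APC cKOs and 7.70, 6.67, 7.23 and 6.49 FPKM in APC/β-cat cKOs. Control 4 and β-cat cOE 3 lay between the low APC-intact libraries and the APC-deleted lines. The difference was 1.35 (standard error 0.27, adjusted p = 0.0398), and 1.54 without control replicate 1 (adjusted p = 0.00310).

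Pcdhgb5, a B-type member, had the same order. Controls had 2.95, 0.837, 1.28 and 1.89 FPKM, and β-cat cOEs 1.39, 0.899, 1.89 and 0.570 FPKM. In APC cKOs it had 3.41, 2.90, 2.99 and 2.55 FPKM, and in the double mutant 3.32, 3.27, 2.78 and 3.62 FPKM. Control 4 and β-cat cOE 3 were again the nearest of the APC-intact libraries to the APC-deleted lines, after control 1. The difference was 1.18 (standard error 0.23, adjusted p = 0.0373), and 1.32 without control replicate 1 (adjusted p = 0.00516).

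The calls on Pcdhb6, Pcdhb12, Pcdhga11 and Pcdhgb5 depended on single libraries. Of the 16 fits that left out 1 library each, Pcdhb6, Pcdhb12 and Pcdhga11 were called in 3 and Pcdhgb5 in 2, always including the fit without control replicate 1, and Pcdhb9 in all 16.

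Without control replicate 1, 12 of the 55 members were called between the APC-deleted and APC-intact groups, where 1.02% of tested genes were. They were 7 beta members (Pcdhb2, Pcdhb3, Pcdhb5, Pcdhb6, Pcdhb7, Pcdhb9 and Pcdhb12) and 5 gamma members (Pcdhga4, Pcdhgb5, Pcdhgb6, Pcdhga11 and Pcdhgb8). Of these 12, 9 were higher and 3 (Pcdhb9, Pcdhb12 and Pcdhga4) were lower in the APC-deleted lines. Control replicate 1 lay within the range of the 8 APC-deleted libraries in 10 of the 12 and in 0 of the 12 within the range of the 7 remaining APC-intact libraries, and it was nearer to the mean of the APC-deleted lines in all 12. The 12 were called with this library left out because of its values at the members, so its position at them is no independent result. Pcdhb2, Pcdhb3, Pcdhb5, Pcdhb7, Pcdhga4, Pcdhgb6 and Pcdhgb8 are described here after their values were seen, except that Pcdhb2 was also chosen by rule in another comparison.

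Of those members, Pcdhb7 had 6.10 FPKM in control 1 and 1.94, 1.99 and 2.67 FPKM in controls 2 to 4, and 2.33, 2.92, 2.96 and 1.78 FPKM in β-cat cOEs. APC cKOs had 5.66, 5.83, 5.78 and 4.43 FPKM and APC/β-cat cKOs 4.72, 4.46, 4.89 and 4.42 FPKM. Every APC-deleted library was above every APC-intact library but control 1. The difference was 0.90 (adjusted p = 0.0574) with all libraries and 1.08 (adjusted p = 1.36e-04) without control 1.

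Pcdhb3 went from 1.57 to 1.81 FPKM in controls 2 to 4, with 3.90 FPKM in control 1, and from 1.68 to 2.30 FPKM in β-cat cOEs, against 3.35 to 3.95 FPKM in APC cKOs and 2.56 to 3.18 FPKM in APC/β-cat cKOs. Its difference was 0.64 (adjusted p = 0.0772), and 0.78 without control 1 (adjusted p = 1.44e-04). Pcdhgb6 went from 1.83 to 3.62 FPKM in controls 2 to 4, with 4.97 FPKM in control 1, and from 1.36 to 3.67 FPKM in β-cat cOEs, against 4.35 to 5.62 FPKM and 4.07 to 6.27 FPKM in the APC-deleted lines. Apart from control 1, all APC-deleted libraries were thus above all APC-intact ones for either gene. The remaining 4 members overlapped between the groups even without control 1, with differences of 0.78 (Pcdhb2), 0.76 (Pcdhb5), 0.89 (Pcdhgb8) and -0.47 (Pcdhga4) and adjusted p-values of 0.00837 (Pcdhgb8) to 0.0453 (Pcdhga4).

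**Figure D3:**
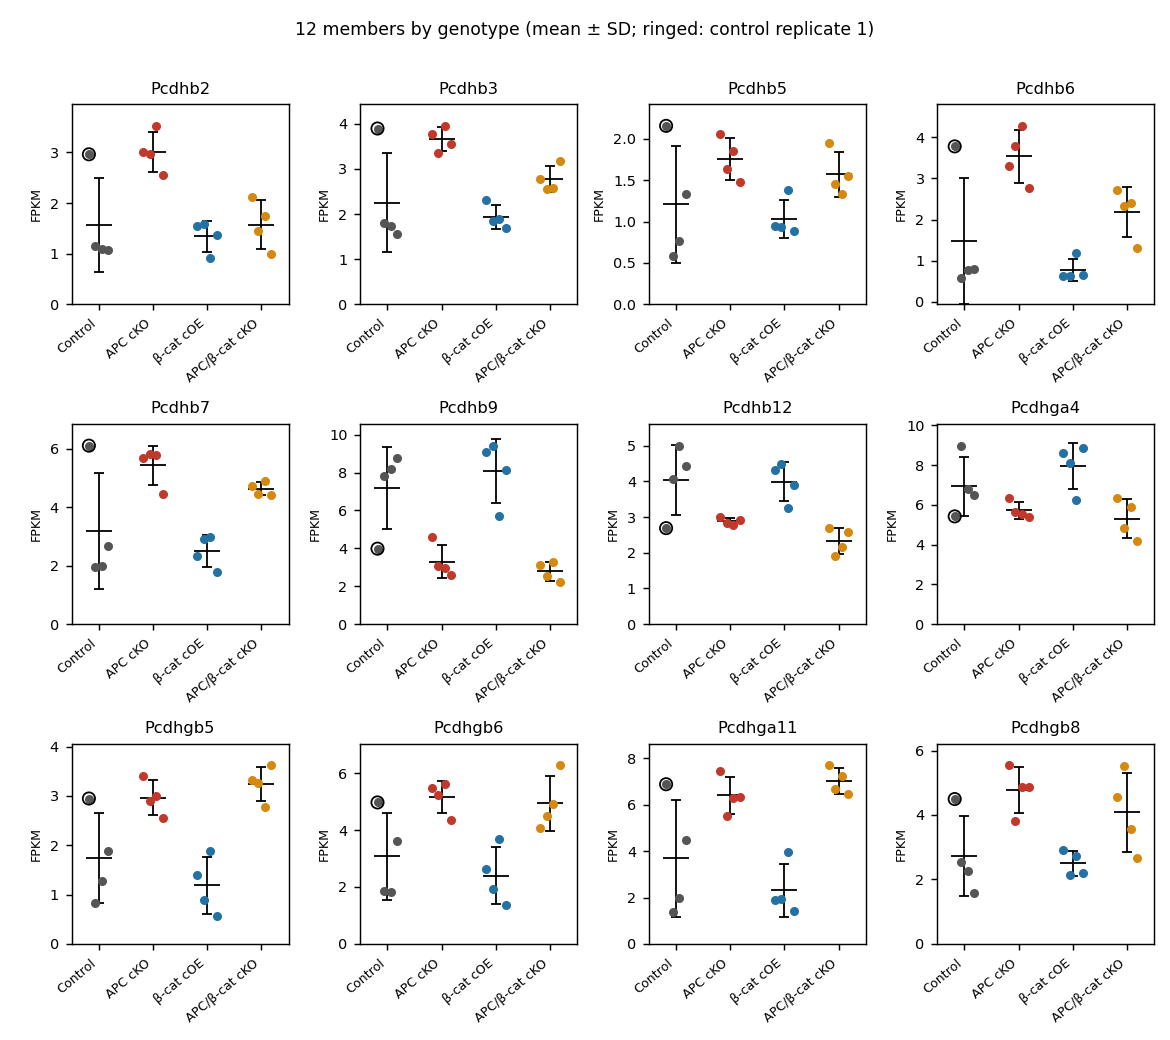
FPKM of the 12 members called without control replicate 1, in each library by genotype. Points are libraries, lines and bars the mean ± SD of 4 (which for Pcdhb6 in controls reaches just below 0), and the ring marks control replicate 1, which lies with the APC-deleted lines and away from the other controls.

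The separation of the groups was counted as well. With all 16 libraries, 0 of 55 members had APC-deleted and APC-intact libraries that did not overlap, against 0.143% of tested genes. Without control replicate 1, 8 of 55 did not overlap, against 0.508%: Pcdhb3, Pcdhb6, Pcdhb7, Pcdhgb5, Pcdhgb6 and Pcdhga11 were higher and Pcdhb9 and Pcdhb12 lower. When no control library was used and the 8 APC-deleted libraries were set against the 4 β-cat cOEs alone, again 8 of 55 members did not overlap, against 1.35% of tested genes, and they were those 8 genes. This comparison was added after the data were seen, and no value of a control enters it. It uses the same mutant libraries and is a part of the comparison before it. A gene apart in the larger comparison must be apart in the smaller one. The return of those 8 genes was thus fixed in advance and is no separate support, and only the absence of further members was open.

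Position along the clusters was uneven. The members with higher values lay next to each other in the beta cluster, from Pcdhb2 to Pcdhb7, with Pcdhb4 among them at a difference of 0.24 (adjusted p = 0.527). Pcdhb8, between Pcdhb7 and Pcdhb9, was at -0.20, and from Pcdhb13 to Pcdhb22 no member was called and differences lay between -0.40 and 0.17. In gamma, members with large and small differences lay side by side, with Pcdhgb5 at 1.18, Pcdhga9 at 0.00, Pcdhgb6 at 0.96, Pcdhga10 at -0.02, Pcdhgb7 at 0.20, Pcdhga11 at 1.35 and Pcdhgb8 at 0.76. Of these, Pcdhgb5 and Pcdhga11 were called with all libraries, and Pcdhgb6 and Pcdhgb8 as well without control replicate 1. Beyond them Pcdhga12 was at 0.03, and Pcdhgc3, Pcdhgc4 and Pcdhgc5 lay between -0.15 and 0.07. The 12 tested alpha members lay between -0.34 and 0.10, with a median of -0.09, and in the fit without control replicate 1 between -0.38 and 0.10.

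**Figure D4:**
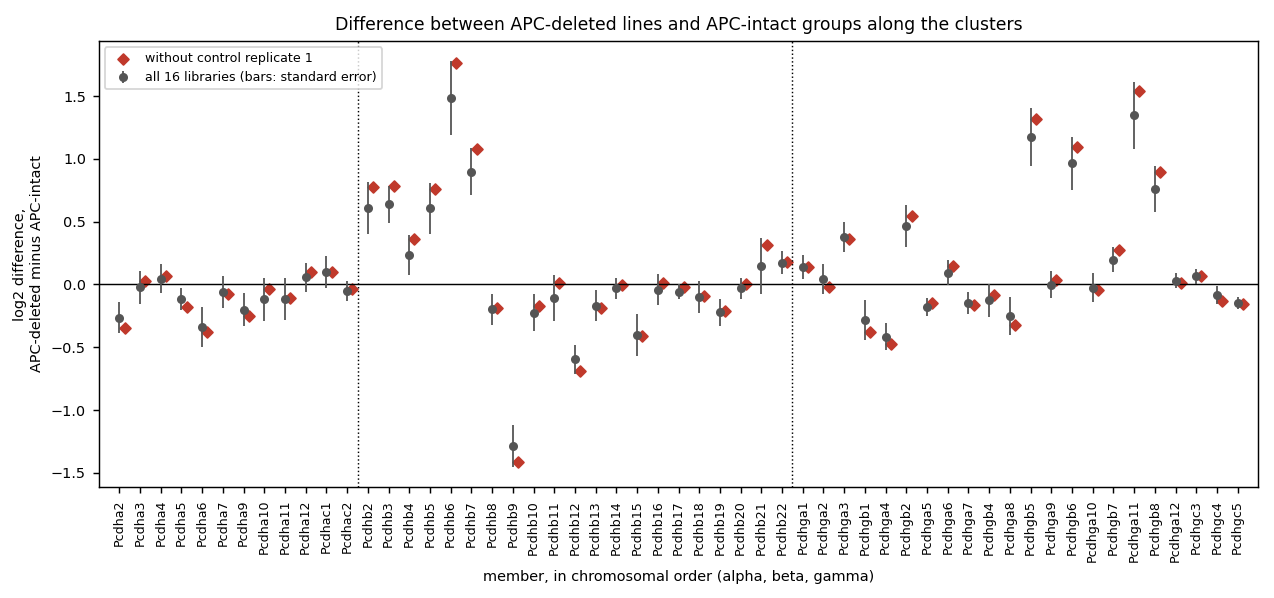
Log2 difference of each tested member between APC-deleted lines and APC-intact groups, in chromosomal order. Circles with standard errors use all 16 libraries and diamonds leave out control replicate 1; the largest differences are Pcdhb6 (1.49), Pcdhga11 (1.35) and Pcdhb9 (-1.28), and the 12 alpha members lie between -0.34 and 0.10 as circles and between -0.38 and 0.10 as diamonds.

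Expressed as shares, Pcdhb9 made up 14.4% ± 5.4 of the summed beta FPKM in controls and 16.3% ± 2.6 in β-cat cOEs, and 5.9% ± 1.3 in APC cKOs and 6.3% ± 0.7 in the double mutant (SD, n = 4 each). Pcdhb7 made up 5.9% ± 2.7 and 5.1% ± 1.1 in the APC-intact groups and 9.8% ± 0.7 and 10.5% ± 0.4 in the APC-deleted lines. Pcdhb17, the second beta member by level, was at 10.4% ± 0.7 and 11.0% ± 0.1 in controls and β-cat cOEs, and at 9.8% ± 0.8 and 11.2% ± 1.2 in the APC-deleted lines. These shares describe changes within the cluster and were not tested.

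Line by line against controls, few members passed the test. In APC cKOs 0 of 55 members were called (0.0429% of all tested genes), and 17 had an unadjusted p under 0.05 (13 higher and 4 lower, 10.0% of all tested genes). In APC/β-cat cKOs 1 member was called, Pcdhb9 (difference -1.29, standard error 0.24, adjusted p = 0.0361), where 0.207% of tested genes were, and 16 had an unadjusted p under 0.05 (7 higher and 9 lower, 14.2%). In β-cat cOEs 0 members were called (0.0143%), and 4 had an unadjusted p under 0.05 (3 higher and 1 lower, 5.07%). All 3 comparisons share the same controls.

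Without control replicate 1, 6 members were called in APC cKOs against controls (0.307% of tested genes): Pcdhb2 (1.36), Pcdhb3 (1.06), Pcdhb6 (2.14), Pcdhb7 (1.27) and Pcdhgb8 (1.13) were higher and Pcdhb9 (-1.33) was lower. In APC/β-cat cKOs 5 were called (0.400%), of which Pcdhb3 (0.67), Pcdhb6 (1.45) and Pcdhb7 (1.05) were higher and Pcdhb9 (-1.55) and Pcdhb12 (-0.93) lower. Pcdhb3, Pcdhb6, Pcdhb7 and Pcdhb9 were called in both lines.

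Between the mutant lines, which do not involve the controls except for the estimate of the spread, Pcdhb9 was called higher in β-cat cOEs than in APC/β-cat cKOs (difference 1.50, standard error 0.24, adjusted p = 0.0143), as 1 of 55 members against 0.229% of tested genes. At an unadjusted p under 0.05 there were 15 members (7 higher and 8 lower, 11.9%). For APC cKOs against β-cat cOEs 0 members were called (0.0429%) and 18 had an unadjusted p under 0.05 (12 higher and 6 lower, 7.57%). The smallest p-values there were those of Pcdhb9 (difference -1.28, adjusted p = 0.102) and Pcdhb6 (difference 2.09, adjusted p = 0.117). When control replicate 1 was left out of the estimate of the spread, 6 members were called in the former comparison (0.386%) and 5 in the latter (0.164%). The former were Pcdhb6, Pcdhb7, Pcdhb9, Pcdhb12, Pcdhgb5 and Pcdhga11, and the latter were Pcdhb2, Pcdhb3, Pcdhb6, Pcdhb7 and Pcdhb9.

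The APC-deleted lines were also set against each other, which addresses the level of β-catenin where APC is lost. No member was called (0 of 55, with 0.215% of tested genes), and 9 had an unadjusted p under 0.05 (8 higher and 1 lower in APC cKOs, 10.3%). Each of the 21 tested beta members had a higher fitted value in APC cKOs, from 0.09 to 0.93, with a median of 0.35, and the median over all tested genes was 0.00. Under both other scalings all 21 were higher as well, with medians of 0.29 (quantile normalization) and 0.36 (median-of-ratios scaling). Between the same lines no marker of a cell type was called, but several had an unadjusted p under 0.05. Among these were all 3 oligodendrocyte markers, with lower values in APC cKOs (median difference -0.58; Mbp, adjusted p = 0.0609), with sums of 515 to 624 FPKM against 769 to 857 FPKM in the double mutant. The neuronal marker Rbfox3 was at -0.13 (adjusted p = 0.274), the interneuron marker Gad2 at 0.37 (adjusted p = 0.332), and 1 of 3 choroid plexus (Kl) and 1 of 3 meningeal markers (Col1a1) were under that p, while the sums of these 4 lists overlapped. The 4 tested striatal projection neuron markers had 0 under that p but a median difference of 0.73. Their sums ran from 13.1 to 88.4 FPKM in APC cKOs and from 11.1 to 53.9 FPKM in the double mutant. The part of cell makeup in the beta differences was not tested.

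Pcdhb2 had 3.01, 2.97, 3.53 and 2.57 FPKM in APC cKOs and 2.12, 1.44, 1.74 and 0.993 FPKM in APC/β-cat cKOs. The 2 lines did not overlap at Pcdhb2 (difference 0.93, standard error 0.29, adjusted p = 0.274), and the number of tested genes apart between them was not counted. Pcdhb14 had 2.67, 2.69, 2.85 and 2.101 FPKM against 1.84, 2.22, 1.74 and 1.80 FPKM, which overlapped (difference 0.42, standard error 0.12, adjusted p = 0.209).

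Raised β-catenin was examined by setting APC cKOs and β-cat cOEs against controls and APC/β-cat cKOs. No member was called (0 of 55, with 0.0572% of tested genes), and 2 members, Pcdhgc3 and Pcdhb22, had an unadjusted p under 0.05, both higher (8.84% of tested genes). Pcdhgc3, a C-type member known as a partner of the Wnt scaffold protein Axin1, had 21.2, 21.4, 20.4 and 20.95 FPKM in controls. The values in APC cKOs were 29.3, 22.6, 25.4 and 27.1 FPKM, in β-cat cOEs 28.2, 25.9, 22.2 and 24.6 FPKM, and in APC/β-cat cKOs 20.5, 24.9, 21.96 and 21.7 FPKM. All 8 libraries with raised β-catenin were above all 4 controls, and they overlapped with APC/β-cat cKOs. Of 13978 tested genes, 765 did not overlap between APC cKOs and controls and 430 between β-cat cOEs and controls. Genes apart in both lines at once were not counted. The difference of Pcdhgc3 was 0.24 (standard error 0.06, adjusted p = 0.265). Against controls it was 0.31 in APC cKOs (adjusted p = 0.310) and 0.26 in β-cat cOEs (adjusted p = 0.946).

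The oligodendrocyte marker Mbp differed in the opposite direction in the same comparison (-0.33, standard error 0.08, adjusted p = 0.265). The sum of the 3 oligodendrocyte markers was 595 to 941 FPKM in controls, 602 to 778 FPKM in β-cat cOEs, 515 to 624 FPKM in APC cKOs and 769 to 857 FPKM in the double mutant, and its part in the values of Pcdhgc3 was not tested. Pcdhb22 was at 2.25 FPKM in controls and 2.97 FPKM in APC cKOs on average, and at 2.42 FPKM in APC/β-cat cKOs and 2.47 FPKM in β-cat cOEs, and its difference was 0.21 (adjusted p = 0.512). Pcdhgb4, a B-type member, had 1.49 to 2.12 FPKM in controls and 2.36 to 3.73 FPKM in β-cat cOEs, which did not overlap (difference 0.65, standard error 0.19, adjusted p = 0.946). Pcdhgb4 and Pcdhgc3 were the 2 of 55 members apart between these groups, as were 430 of 13978 tested genes.

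Of the other C-type members, Pcdhgc5 had 60.6, 60.7, 63.3 and 61.1 FPKM in controls and 58.1, 50.1, 56.1 and 45.9 FPKM in APC/β-cat cKOs. These groups did not overlap, and the difference was -0.23 (standard error 0.07, adjusted p = 0.225). APC cKOs, at 55.4 to 58.7 FPKM, were below all controls as well (difference -0.10, standard error 0.07, adjusted p = 0.635), and β-cat cOEs, at 57.0 to 66.8 FPKM, overlapped them. Of 13978 tested genes, 765 did not overlap between APC cKOs and controls and 728 between APC/β-cat cKOs and controls. Of the 55 members, 3 were apart and higher and 1 lower in APC cKOs, and 1 higher and 4 lower in APC/β-cat cKOs. Pcdhac2, which is needed for the even spread of serotonergic axons, went from 17.1 to 19.9 FPKM in controls and from 14.3 to 20.3 FPKM in the 12 mutant libraries, and all groups overlapped. Pcdhac1 ranged from 1.33 to 2.63 FPKM and Pcdhgc4 from 4.12 to 5.75 FPKM over the 16 libraries. Their differences between APC-deleted and APC-intact groups were 0.10 and -0.08, with standard errors of 0.13 and 0.07.

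**Figure D5:**
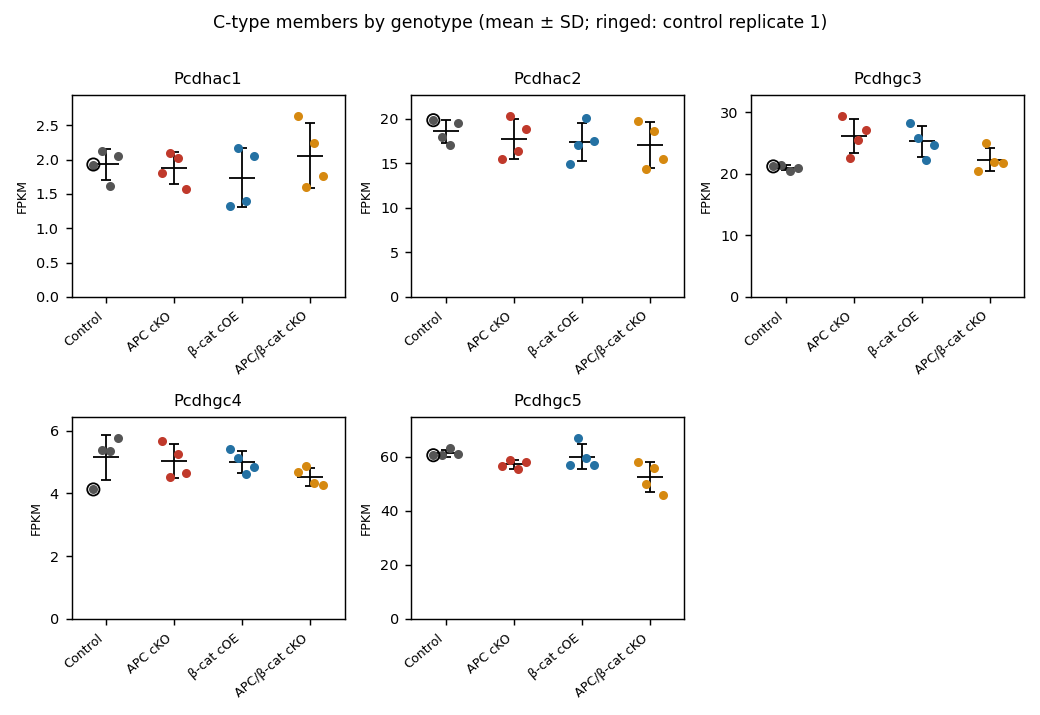
FPKM of the 5 C-type members in each library by genotype, with points for libraries, lines and bars for the mean ± SD of 4, and a ring for control replicate 1. Pcdhgc3 is above all 4 controls in the 8 libraries with raised β-catenin, and Pcdhgc5 is below all 4 controls in both APC-deleted lines, while neither passed the test.

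Genes that act on or with the clusters did not pass the test in any of the 8 comparisons. Among 20 tested regulators of the clusters 0 were called, and at an unadjusted p under 0.05 there were 3 between the APC-deleted and APC-intact groups (13.3% of all tested genes) and 5 in APC/β-cat cKOs against controls (14.2%). Ctcf, which binds the promoters and enhancers, was at 22.2 ± 0.33 FPKM in controls, 22.2 ± 0.75 FPKM in β-cat cOEs, 21.7 ± 1.82 FPKM in APC cKOs and 20.5 ± 0.73 FPKM in the double mutant (SD, n = 4 each). The difference between APC-deleted and APC-intact groups was -0.08 for Ctcf, -0.03 for the cohesin subunit Rad21 and -0.06 for Smchd1, a chromatin protein that silences clustered genes, with standard errors of 0.04, 0.03 and 0.07. The cohesin loader Nipbl had the smallest p against controls in any line, in APC/β-cat cKOs (difference -0.28, standard error 0.10, adjusted p = 0.278).

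Among 20 tested signalling and processing partners 0 were called. Axin1 differed by 0.05 between APC-deleted and APC-intact groups (standard error 0.07). Marcks, an actin-binding target of protein kinase C that acts below the gamma members in dendrite branching, had the smallest p against controls, in APC cKOs (difference 0.30, standard error 0.08, adjusted p = 0.310). At an unadjusted p under 0.05 there were 2 of 20 partners between APC-deleted and APC-intact groups (13.3% of all tested genes) and 4 of 20 in APC cKOs against controls (10.0%).

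The 10 delta protocadherins are related genes outside the clusters, and 0 were called. Pcdh8 was at 8.23 ± 0.60 FPKM in controls and 8.79 ± 0.36 FPKM in β-cat cOEs, and at 10.2 ± 1.47 FPKM in APC cKOs and 10.1 ± 0.33 FPKM in the double mutant (difference between APC-deleted and APC-intact groups 0.25, standard error 0.06, adjusted p = 0.0899). It was 1 of 2 delta protocadherins with an unadjusted p under 0.05 in that comparison (13.3% of all tested genes). In APC/β-cat cKOs against controls 4 of the 10 had such a p (14.2% of all tested genes), and the median difference of the 10 was -0.17.

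Of 15 tested genes beside the clusters, Apc and Cd14 were called in at least 1 comparison with all libraries, and Apc alone between the APC-deleted and APC-intact groups. Cd14, a coreceptor for bacterial lipopolysaccharide that lies 2.40 Mb beyond Apc, had 1.32 to 1.87 FPKM in controls, 1.99 to 2.44 FPKM in β-cat cOEs, 0.86 to 1.35 FPKM in APC cKOs and 1.29 to 1.77 FPKM in the double mutant. It was lower in APC cKOs than in β-cat cOEs (difference -0.99, standard error 0.15, adjusted p = 0.0172). Its difference between APC-deleted and APC-intact groups was -0.49 (standard error 0.11, adjusted p = 0.0655), and without control replicate 1 it was -0.52 (adjusted p = 0.0343) and was called. The other 13 neighbours of the clusters that were tested lay between -0.07 and 0.16 between the APC-deleted and APC-intact groups with all libraries. Whether strain DNA around the floxed Apc allele differed between the lines was not tested.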

How the data were processed

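TruSeq stranded mRNA libraries were sequenced by the authors with paired reads of 100 bases. The authors mapped them to mm10 with TopHat2 2.0.10 and made FPKM with Cufflinks2 and Cuffdiff 2.1.1; the gene annotation is not given in the sources used here. The deposited values are log2 values, whose base and offset are not stated and were inferred as log2(FPKM + 1), and they were turned back into FPKM. No fragment counts were used, so no counting intervals are given. Libraries were grouped by the genotype in the labels, and replicates were numbered in accession order. Nothing in the labels says how the mice were sampled beyond their genotype, so p-values measure the spread between these libraries.

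Differences were tested with limma 3.58.1 in R 4.3.3 (linear models, with a mean-variance trend in eBayes) on log2(FPKM + 0.1), in 1 fit of the 4 genotypes with 12 residual degrees of freedom. Genes averaging under 0.5 FPKM were left out, which kept 13978, with Benjamini-Hochberg adjustment over all of them and calls at an adjusted p under 0.05, in 8 comparisons. On simulated data for APC cKOs against controls with 13978 genes, 91 of 100 genes changed by 1 and 99 of 100 changed by 2 on the log2 scale were called, with 7 calls among 13778 unchanged genes. The changed genes were drawn from all tested genes, whose median residual SD was 0.146, against 0.252 in members and 0.310 in beta members. These counts therefore do not tell how often a changed member would be called. The members and gene lists were chosen with earlier results of these data known. Members were named if called in any comparison, if among the 2 smallest p-values of a comparison, if C-type, or if highest or lowest in their cluster (17 members), and 6 more were named after their values were seen. Positions came from RefSeq genes on GRCm38.p6, and shared windows from GENCODE M21 transcripts matched to RefSeq (57 of 58 members; Pcdhgb8 had no match). Alternatives were another pseudocount (1 or 0.01), a filter at 2 FPKM or none, scaling by quantiles or by the median of ratios, eBayes with no trend, an adjusted p under 0.01, sex as a covariate, only the groups compared, the number in the sample title as a block, and each library left out. Sequences of the members are not reported here. Python 3.11.15, pandas 2.3.3 and matplotlib 3.10.9 made the tables and plots.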

Additional observations from a re-analysis of the deposited data

Results flagged for a closer look

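Within each genotype the named members were searched for a library far from the other 3, by the gap to its nearest neighbour divided by the range of the 4 values. In 92 groups searched, 8 stood out, where independent groups would give about 4.6 by chance. The members vary together, and 6 of them were named after their values were seen, so this number is only a rough guide. Control replicate 1 was the highest control at Pcdhb1 (0.898 of the range), Pcdhb2 (0.966), Pcdhb3 (0.897) and Pcdhb6 (0.929). These are 4 adjacent or near beta members, and the values of this library are given with and without it in the report. β-cat cOE replicate 3 was the highest of its genotype at Pcdhb5 (0.878) and Pcdhb6 (0.949). APC cKO replicate 4 was the lowest APC cKO at Pcdhb7 (0.884), with 4.43 FPKM. Control replicate 3 was the highest control at Pcdhgc5 (0.832), with 63.3 FPKM.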

How the results depend on the processing

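The counts of called members depended on the processing, whereas the summed FPKM of the 3 clusters moved by less than the spread between replicates in every alternative run. For the APC-deleted against the APC-intact groups, the count of 5 members became 1 with an adjusted p under 0.01, 1 with no filter on low values, 2 with no trend, and 9 with sex as a covariate. It ranged from 1 to 12 over the fits that left out 1 library, with 12 without control replicate 1, 6 without β-cat cOE replicate 3 and 1 or 2 without any other. For APC/β-cat cKOs against controls, the count of 1 became 0 with an adjusted p under 0.01, with no filter, with no trend and with only the groups compared, became 2 with sex as a covariate, and ranged from 0 to 5 over left-out libraries. Between β-cat cOEs and the double mutant, the count of 1 became 0 with an adjusted p under 0.01 and 2 with only the groups compared, and ranged from 0 to 6. For APC cKOs the count of 0 ranged from 0 to 6 against controls and from 0 to 5 against β-cat cOEs, where it was 2 with only the groups compared. In all 5 comparisons the highest of these counts was that without control replicate 1. Control replicate 1 was the only control of its sex by Xist, so sex and library cannot be told apart in controls. Other causes of these shifts were not tested.

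With the number in the sample title as a block, 0 members were called in each of the 3 comparisons that had called members. In APC cKOs the title numbers differ in part from the replicate numbers used here, and not every library shares its title number with another. Libraries with the same title number did not deviate together as a set. The correlations of their deviations ran from -0.218 to 0.322 in 21 pairs, with a median of -0.069, and 5 libraries correlated best with their own number. This check covers the title numbers only and cannot show that the samples are unpaired. Other ways of pairing the libraries were not tested. Among 19 differences of named members, 391 values under alternatives kept their direction and their side of the threshold, 84 kept the direction but were no longer called, 8 became called and 0 reversed. Depth is unknown, so low members such as Pcdhb1 and Pcdha8 could not be given a counting error.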

Other observations

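The 3 members that were too low to test can be given as values only. Pcdha8 was at 0.454 FPKM in control replicate 1 and at 0.0437 to 0.188 FPKM in the other controls. It was at 0.254 to 0.444 FPKM in APC cKOs, 0.0694 to 0.169 FPKM in β-cat cOEs and 0.0662 to 0.199 FPKM in APC/β-cat cKOs. APC cKOs and control replicate 1 were thus above all other libraries at this gene, and the double mutant was not. This grouping was made after the values were seen, and the number of genes apart in this way was not counted. Of the windows of Pcdha8, 55.2% were shared with other members, so its value depends on how reads were divided. Pcdhb1 was at 0.440 FPKM in control replicate 1, 0.0436 to 0.0842 FPKM in the other controls and 0.0931 to 0.117 FPKM in β-cat cOEs, against 0.130 to 0.407 FPKM in APC cKOs and 0.127 to 0.262 FPKM in APC/β-cat cKOs. At Pcdhb1 all 8 APC-deleted libraries were above all APC-intact libraries but control replicate 1. Without control replicate 1, 0.508% of tested genes were apart between these groups, in either direction. Pcdhb1 was too low to test, and this library was singled out by the members, so the separation is no separate support. Pcdha1 ranged from 0.168 to 0.767 FPKM with all genotypes overlapping.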
